A study of Mus musculus with 9 samples.

Results

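A set of 41 genes of motile cilia was followed across the 9 brain libraries of a study of mice with 1 inactivated copy of an AP-2 transcription factor gene. The set holds the ciliary dynein, radial spoke, central pair and other axoneme genes, with Foxj1 and further genes that mark ependymal cells; it was listed by name, and the names were matched to gene identifiers through GENCODE M21, on the mouse build GRCm38. All 41 were found among the 54446 gene identifiers of the count tables, and all 41 were among the 17355 genes that passed the filter on low counts. They lie on 16 chromosomes.

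The mice were adult males of 3 to 4 months. The 3 groups were wild type (labelled B6N), Tfap2a+/- and Tfap2b+/-, with 3 libraries each, and the RNA was polyadenylated RNA of brain tissue read as 75 bp pairs from strand-preserving libraries. No other allele or agent is named for any group, and the part of the brain taken, the construction of the 2 alleles and the background of the heterozygotes are not given in the sources used here. The labels do not tie each library to an animal of its own, and any p-value therefore speaks only of the variation among these libraries, part of which may be technical.

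Each library held between 21946800 and 29214975 counts in genes. A level is given in CPM, the reads of a gene scaled to a common library size with TMM, a correction that assumes most genes do not differ. The limit of a count of 0, taken as 3 counts, was 0.101 to 0.141 CPM, for counting error only. Tfap2a itself was low, at 0.610, 0.263 and 0.734 CPM across the wild-type libraries, 0.445, 0.223 and 0.461 CPM across Tfap2a+/- and 1.59, 0.674 and 0.113 CPM across those labelled Tfap2b+/-. Its highest value was in library 1 labelled Tfap2b+/-, and the Tfap2a+/- libraries overlapped wild type. Tfap2b, which encodes AP-2 beta, was at 2.25, 0.715 and 14.8 CPM across the wild-type libraries, 1.88, 2.54 and 3.96 CPM across Tfap2a+/- and 32.9, 8.90 and 5.81 CPM across those labelled Tfap2b+/-. The third group thus held the highest Tfap2b value and overlapped wild type, so its libraries are called here the libraries labelled Tfap2b+/-. Values of a group are given in the order of libraries 1, 2 and 3, the replicate numbers of the labels. What a number shared between groups stands for is not stated there.

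Motile cilia are whip-like projections built on a ring of doublet microtubules around a central pair. Dynein arms on the doublets pull on their neighbours, radial spokes and the central pair control the arms, and the nexin-dynein regulatory complex links the doublets. In the brain, such cilia stand in tufts on ependymal cells, the epithelium that lines the ventricles, where their beating moves cerebrospinal fluid. FOXJ1 is the transcription factor known for switching on the genes of motile cilia, together with factors of the RFX family, which bind a paired DNA motif called the X-box.

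The promoters of the members were read first, as a feature that the choice of the genes did not use. RefSeq promoters, from 250 bases before to 50 after the start site on GRCm38.p6, were found for 35 of the 41 members, as 39 promoters. Foxj1, Rarres2, Rsph1, Rsph4a, Cfap54 and Cfap65 had no entry. A full X-box match on either strand, with 0 to 3 bases between its arms, was found in 6 of the 39 promoters, 15.4% (exact 95% binomial interval 5.86% to 30.5%), and in 502 of all 32851 promoters, 1.53%. The interval takes promoters of the same gene as separate draws, which they may not be. The 6 genes were Dynlrb2, Spag16, Hydin, Spef2, Cfap44 and Cfap45. All 6 are printed, since they are the members whose promoter held the motif: a dynein light chain, 3 central pair proteins, a protein of the tether that holds inner arms and, in Cfap45, a protein inside the doublet microtubules. Each run is written 5′ to 3′ on the strand of the gene, and the capitals mark the X-box match:
Dynlrb2: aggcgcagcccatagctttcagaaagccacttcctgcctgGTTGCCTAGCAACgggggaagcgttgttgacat
Spag16: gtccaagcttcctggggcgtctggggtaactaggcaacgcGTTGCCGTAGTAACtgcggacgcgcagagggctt
Hydin: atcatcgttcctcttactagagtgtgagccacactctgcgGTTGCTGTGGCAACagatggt
Spef2: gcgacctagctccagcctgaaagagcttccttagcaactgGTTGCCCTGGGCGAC
Cfap44: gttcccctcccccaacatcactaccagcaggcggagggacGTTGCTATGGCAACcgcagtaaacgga
Cfap45: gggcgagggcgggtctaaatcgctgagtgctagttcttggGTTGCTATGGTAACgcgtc

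These runs lie on GRCm38.p6 at chr8:116504924-116504996 (plus strand, Dynlrb2), chr1:69826827-69826900 (plus strand, Spag16), chr8:110266916-110266976 (plus strand, Hydin), chr15:9748846-9748900 (minus strand, Spef2), chr16:44394732-44394798 (plus strand, Cfap44) and chr1:172521071-172521129 (plus strand, Cfap45). The match ends 39, 90, 8, 14 and 6 bases before the start site in Dynlrb2, Spag16, Hydin, Cfap44 and Cfap45. In Spef2 it lies within the transcribed part, from base 9 to base 23. The single arm GTTGCC, which a full match can contain, was in 16 of the 39 promoters, 41%, against 12.5% of all promoters. The forkhead motif TGTTTAC was in 3 of them, those of Ak7, Cfap43 and Mlf1, or 7.69% against 3.65%. The AP-2 motif GCCNNNGGC was in 4 of them, those of Cfap126, Ak7, Spef2 and Mlf1, or 10.3% against 16.6%. Both strands were searched throughout.

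Other cilia genes carried the full X-box about as often. It was in 8 of 48 promoters (16.7%) of a list of other spoke, central pair, regulatory complex and axoneme genes, and in 3 of 33 (9.09%) of a list of intraflagellar transport and primary cilium genes. Of the promoters of choroid plexus marker genes, 0 of 18 held it, with an upper bound of 18.5% that again takes promoters of the same gene as separate. No test of these shares was made, and a match is a run of letters, not a bound site.

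The members were high and low together from library to library, within each genotype. Foxj1 was at 11.9, 25.5 and 9.50 CPM across the wild-type libraries, 15.8, 6.37 and 4.19 CPM across Tfap2a+/- and 14.9, 10.8 and 2.68 CPM across those labelled Tfap2b+/-. It was highest in wild-type library 2 and lowest in library 3 labelled Tfap2b+/-, and the 3 groups overlapped. Ccdc153, a gene much used as an ependymal marker, was at 4.18, 6.66 and 2.82 CPM across the wild-type libraries, 5.55, 0.713 and 0 CPM across Tfap2a+/- and 5.47, 2.49 and 0.339 CPM across those labelled Tfap2b+/-. It was at 0 counts in Tfap2a+/- library 3, where wild-type library 2 was at least 48.2-fold higher, set against 3 counts in the lower library.

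Wild-type library 2 was the highest of the 9 libraries for 34 of the 41 members, and 15.7% of all tested genes had their highest value there. Tfap2a+/- library 3 was the lowest for 28 members (14.1% of all genes), library 3 labelled Tfap2b+/- for 9 (10.8%), and another library for the other 4. Both ends coincided, highest in wild-type library 2 and lowest in Tfap2a+/- library 3, for 24 members (3.17% of all genes). Between these 2 libraries the median ratio over the 41 members was 6.77, from 0.989 for Drc1 to 63.3 for Drc7. In Tfap2a+/- library 3, 7 members were at or under the limit of 3 counts, and their ratios, set against that limit, are lower bounds. The heat map of the members by library shows these 2 columns at opposite ends of the colour scale.

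**Figure D1:**
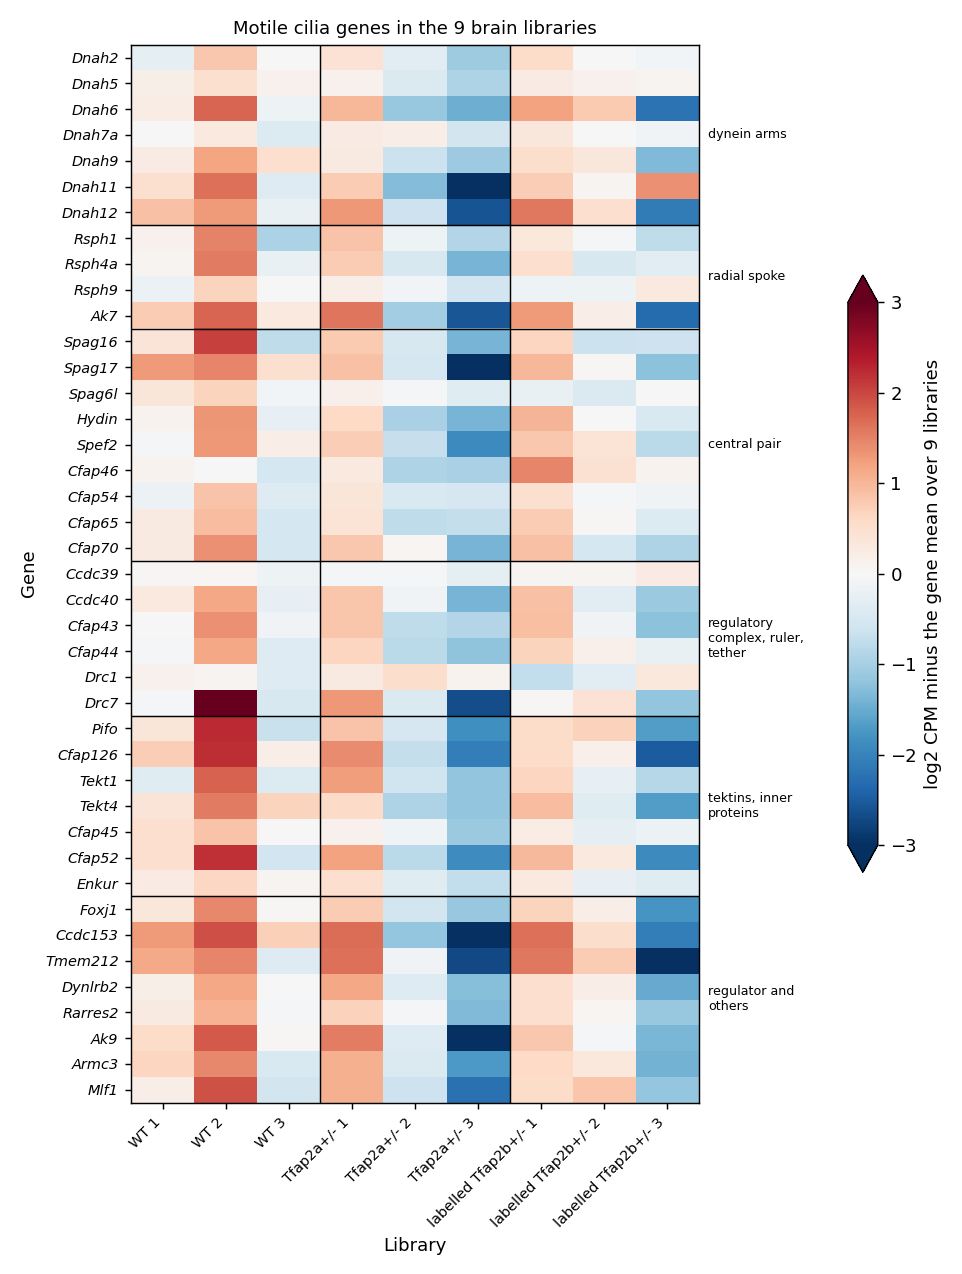
Level of each of the 41 members (rows, grouped by role) in each of the 9 libraries (columns), as log2 CPM with a prior count of 2 minus the mean of that gene over the 9 libraries; colours stop at 3 on either side, which 5 cells exceed. Wild-type library 2 is the highest library for 34 members and Tfap2a+/- library 3 the lowest for 28.

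Within each genotype, most members again shared their highest and their lowest library. Among the wild-type libraries, library 2 was highest for 39 members and library 3 lowest for 36 (36.7% and 29.8% of all genes). Among the Tfap2a+/- libraries, library 1 was highest for 39 members and library 3 lowest for 40 (35.2% and 35.8% of all genes). Among the libraries labelled Tfap2b+/-, library 1 was highest for 33 members and library 3 lowest for 33 (37.9% and 37.0% of all genes). Library 3 was thus the lowest for most members in all 3 groups. Whether libraries of the same number shared a step of handling was not tested.

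A score per library sums this up as the mean over the members of log2 CPM minus the mean of each gene over the 9 libraries. It was 0.30, 1.30 and -0.17 in wild type, 0.78, -0.49 and -1.53 in Tfap2a+/-, and 0.65, 0.08 and -0.93 in the libraries labelled Tfap2b+/-. The spread within a genotype, a pooled SD of 0.92, was as wide as the gaps between the genotype means of 0.48, -0.41 and -0.07. For the members, the median share of the sum of squares that lay between genotypes was 18.3%, and over all tested genes it was 27.1%.

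The median Spearman correlation over the 820 pairs of members was 0.82 over the 9 libraries, against 0.0 over pairs of all tested genes, and 0.85 once the mean of each genotype was subtracted. The correlation was above 0.5 for 81.5% of the pairs and below 0 for 4.63%. The points share their 9 libraries and the tissue taken for each, so these values are a description. The members also varied more than the tested genes as a whole: the median SD of log2 CPM over the 9 libraries was 0.92, against 0.23 for all tested genes. This was not particular to them. The median SD was 1.97 for choroid plexus markers, 1.44 for striatal projection neuron markers and 0.63 for oligodendrocyte markers.

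The dynein arm heavy chains, the motors of the beat, followed the pattern with different reach. Dnah6, an inner arm heavy chain, was at 6.25, 18.0 and 4.83 CPM across the wild-type libraries, 10.8, 2.41 and 1.89 CPM across Tfap2a+/- and 12.4, 9.23 and 1.09 CPM across those labelled Tfap2b+/-. Its lowest library was library 3 labelled Tfap2b+/-. Dnah9, an outer arm heavy chain, was at 9.53, 18.6 and 11.5 CPM across the wild-type libraries, 9.82, 5.12 and 3.73 CPM across Tfap2a+/- and 11.7, 10.2 and 3.21 CPM across those labelled Tfap2b+/-. Dnah12 and Dnah2, both inner arm chains, ran from 0.276 to 6.28 CPM and from 2.58 to 9.67 CPM. Dnah5, an outer arm chain whose loss is a known cause of primary ciliary dyskinesia, was at 10.6, 13.0 and 10.3 CPM across the wild-type libraries, 10.2, 6.86 and 4.88 CPM across Tfap2a+/- and 11.2, 10.2 and 9.92 CPM across those labelled Tfap2b+/-. All 3 Tfap2a+/- libraries lay below the 3 wild-type libraries for Dnah5.

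Dnah11, another outer arm chain, broke the pattern in 1 library. Its levels were 3.85, 8.81 and 2.09 CPM across the wild-type libraries, 4.66, 1.07 and 0.184 CPM across Tfap2a+/- and 4.62, 2.90 and 7.13 CPM across those labelled Tfap2b+/-. Library 3 labelled Tfap2b+/- was the second highest of the 9 for Dnah11, although it was the lowest of its group for 33 members. Dnah7a was nearly flat, from 1.11 to 2.12 CPM. Its near-identical neighbours on chromosome 1, Dnah7b and Dnah7c, make its counts uncertain, since reads that fit several places are not counted. Dnah7b was highest in library 1 labelled Tfap2b+/-, at 14.6 CPM, and at 2.30 to 6.77 CPM in the other libraries.

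Genes of the radial spokes were at moderate levels, and 2 of the 4 left the pattern in the libraries labelled Tfap2b+/-. Rsph4a, a protein of the spoke head, was at 5.49, 15.4 and 4.44 CPM across the wild-type libraries, 8.90, 3.70 and 1.93 CPM across Tfap2a+/- and 7.45, 3.71 and 4.11 CPM across those labelled Tfap2b+/-. Rsph1, also of the spoke head, ran from 1.58 CPM in wild-type library 3 to 8.92 CPM in wild-type library 2. Rsph9, their partner in the spoke head, was at 6.06, 10.8 and 6.84 CPM across the wild-type libraries, 7.84, 6.37 and 4.56 CPM across Tfap2a+/- and 6.07, 6.07 and 8.30 CPM across those labelled Tfap2b+/-. Within the libraries labelled Tfap2b+/-, Rsph9 was highest in library 3, which was the lowest of them for 33 members, and Rsph4a was lowest in library 2. Ak7, an adenylate kinase of motile cilia, ran from 0.369 to 8.81 CPM.

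In the central pair, Hydin, the large protein of a central pair projection whose loss gives hydrocephalus in mice, was at 4.65, 10.9 and 3.63 CPM across the wild-type libraries, 6.57, 2.18 and 1.61 CPM across Tfap2a+/- and 8.93, 4.38 and 3.13 CPM across those labelled Tfap2b+/-. Spag16 ran from 0.369 to 4.78 CPM and Spef2 from 0.645 to 6.62 CPM. Spag17 was at 0 counts in Tfap2a+/- library 3 and at 2.14 CPM in wild-type library 2. Cfap54, Cfap65 and Cfap70, all of the central apparatus, were highest in wild-type library 2, at 18.7, 16.2 and 4.22 CPM. All these genes were highest in wild-type library 2, and of them Spag17 alone was at or under the limit of 3 counts in a library. At the low end, Spag16 was lowest of the libraries labelled Tfap2b+/- in library 2, at 0.674 against 0.679 CPM in library 3. Cfap65 was lowest in Tfap2a+/- library 2, at 5.03 against 5.21 CPM in library 3. Spef2 was lowest of wild type in library 1, at 2.58 against 3.05 CPM in library 3.

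The 2 central pair genes that stood apart were Spag6l and Cfap46. Spag6l was at 9.02, 11.3 and 6.60 CPM across the wild-type libraries, 7.84, 6.73 and 5.48 CPM across Tfap2a+/- and 5.96, 5.16 and 6.94 CPM across those labelled Tfap2b+/-. It moved over a narrow range, and its copy Spag6 was at 0.741 to 5.57 CPM, so the split of reads between the 2 copies is uncertain. Cfap46, a protein of a central pair projection, was at 6.29, 5.76 and 4.02 CPM across the wild-type libraries, 7.15, 3.03 and 2.90 CPM across Tfap2a+/- and 16.1, 7.95 and 6.22 CPM across those labelled Tfap2b+/-. Library 1 labelled Tfap2b+/- stood above every other library for this gene, of the same group or of another.

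The regulatory complex, the ruler and the tether held the member of smallest range, Ccdc39, and, among the 34 members above the limit of 3 counts in every library, the one with the largest ratio of highest to lowest, Drc7. Ccdc39, which forms with Ccdc40 the ruler that sets the spacing of arms and spokes, was at 19.8, 20.0 and 17.3 CPM across the wild-type libraries, 18.3, 18.6 and 15.7 CPM across Tfap2a+/- and 20.4, 20.3 and 22.9 CPM across those labelled Tfap2b+/-. Its highest value was only 1.46 times its lowest, while Ccdc40 ran from 0.737 to 4.74 CPM. Drc7, a subunit of the nexin-dynein regulatory complex, was at 2.63, 23.3 and 1.93 CPM across the wild-type libraries, 6.85, 2.00 and 0.369 CPM across Tfap2a+/- and 2.79, 3.74 and 1.17 CPM across those labelled Tfap2b+/-. Wild-type library 2 was 3.41 times Tfap2a+/- library 1 for Drc7, against a median of 1.44 times over the members.

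Drc1, another subunit of that complex, went its own way. It was at 13.4, 13.0 and 9.35 CPM across the wild-type libraries, 14.8, 17.8 and 13.1 CPM across Tfap2a+/- and 7.34, 9.91 and 15.3 CPM across those labelled Tfap2b+/-. Its highest library was Tfap2a+/- library 2 and its lowest library 1 labelled Tfap2b+/-, and neither is an end of the shared pattern. Pearson's correlation of Drc1 with the score of the other 40 members was -0.29 over the 9 libraries. For Ccdc39 it was 0.32, for Cfap46 0.58, for Rsph9 and Spag6l 0.60, and for Dnah11 0.71. It was above 0.9 for 26 members, with a median of 0.93.

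**Figure D2:**
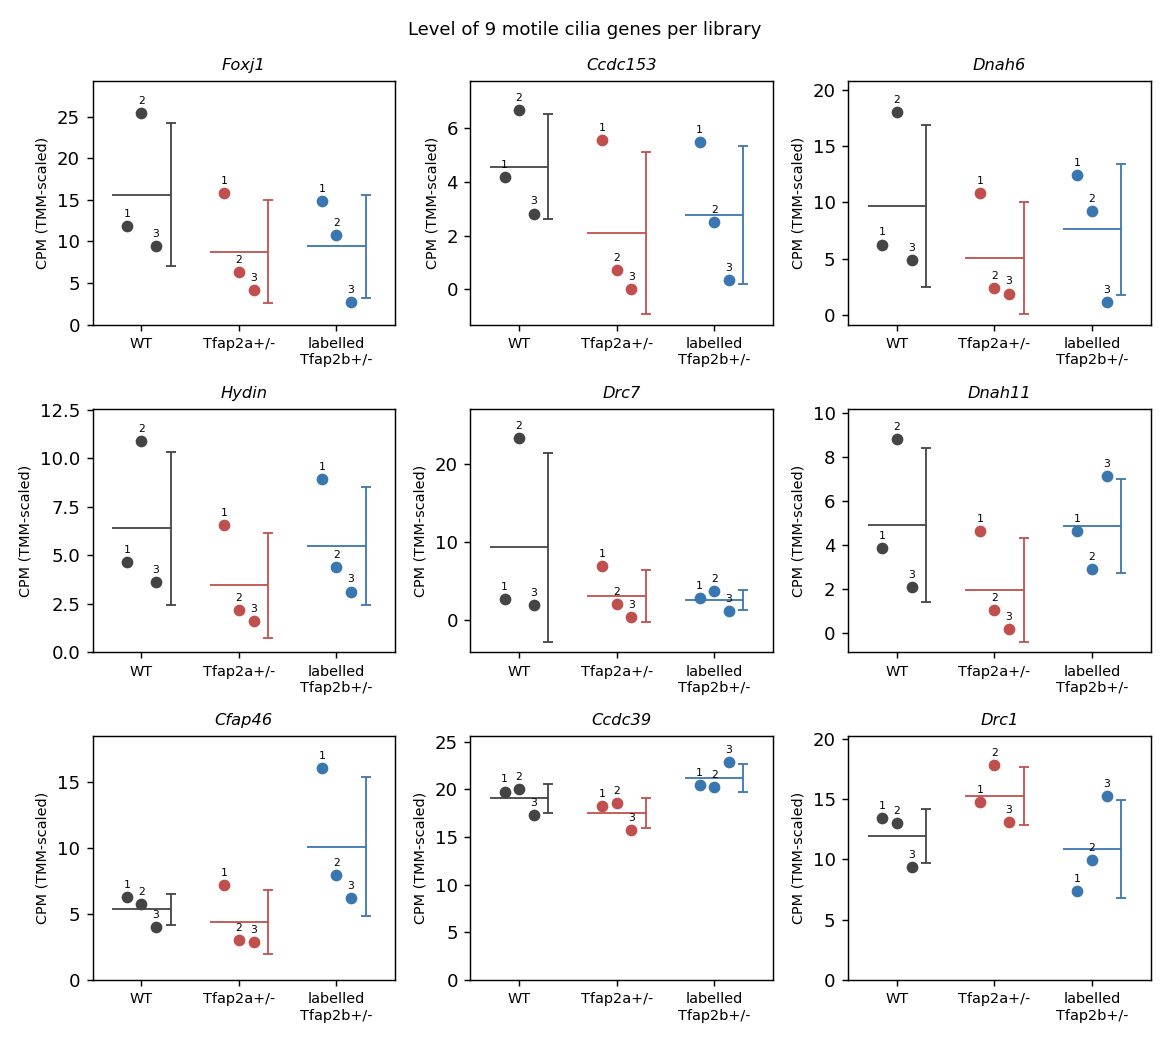
TMM-scaled CPM of 9 members in each library, with dots numbered by library, a line at the mean of each group and a bar of 1 SD on either side (n = 3). Foxj1, Ccdc153, Dnah6 and Hydin share the order of libraries within the groups; Drc7 stands out in wild-type library 2, Dnah11 in library 3 labelled Tfap2b+/- and Cfap46 in library 1 labelled Tfap2b+/-, while Ccdc39 is nearly level and Drc1 follows another order of libraries.

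Tektins and proteins inside the doublet microtubules showed wider swings than the other structural groups, with a median SD of log2 CPM of 1.08 against 0.82 to 0.89. Cfap126, known as Flattop, ran from 0.151 to 5.95 CPM, and Pifo, known as Pitchfork, from 0.0921 to 2.82 CPM. Cfap52 was at 1.55, 5.16 and 0.695 CPM across the wild-type libraries, 2.57, 0.579 and 0.230 CPM across Tfap2a+/- and 2.15, 1.31 and 0.226 CPM across those labelled Tfap2b+/-. Tekt1, a filament protein of the doublets, ran from 0.737 to 6.25 CPM and Tekt4 from 0.0754 to 1.35 CPM. Wild-type library 2 was highest for all 7 members of this group.

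The regulator and the remaining members swung as far, with a median SD of 1.18. The score of their group was 0.57, 1.53 and -0.08 in wild type, 1.20, -0.47 and -2.24 in Tfap2a+/-, and 0.85, 0.36 and -1.73 in the libraries labelled Tfap2b+/-. Tmem212 was at 0 counts in library 3 labelled Tfap2b+/- and at 2.46 CPM in Tfap2a+/- library 1. Dynlrb2, a dynein light chain, ran from 0.264 to 2.12 CPM, and its broadly used relative Dynlrb1 stayed between 66.1 and 79.7 CPM. Mlf1 ran from 0.138 to 3.76 CPM, Armc3 from 0.230 to 2.67 CPM and Ak9 from 0.0461 to 3.39 CPM. Rarres2, which encodes the secreted protein chemerin and is no part of the cilium, was at 5.02, 8.62 and 4.02 CPM across the wild-type libraries, 6.71, 3.97 and 1.61 CPM across Tfap2a+/- and 5.89, 4.28 and 1.85 CPM across those labelled Tfap2b+/-, and its correlation with the other members was 0.97.

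Per length of exon, the members were low in this tissue. Median RPKM over the 9 libraries, reads scaled to exon length and library size, was 4.89 for Drc1, 4.11 for Foxj1, 3.98 for Rsph9, 2.66 for Ccdc39 and 2.19 for Rsph1. It was 0.112 for Spag16, 0.123 for Spag17, 0.132 for Dnah7a and 0.133 for Ak9. Drc1, Rsph9 and Ccdc39, high on this scale, were also among the 5 members whose correlation with the others was below 0.7. Some members overlap a gene on the opposite strand, and 5 had over 10% of their stranded reads on the forward setting: Rarres2 (68.9%, overlapping Lrrc61), Spag17 (68.7%, overlapping Wdr3), Ccdc39 (42.6%, overlapping Ttc14), Cfap52 (12%) and Ccdc40 (11.5%). How far reads of these partners enter the counts of the members was not tested.

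Markers of other cell types were summed beside the members. The 16 choroid plexus markers, genes of the epithelium that makes cerebrospinal fluid, were all tested. Their summed level was 368.7 to 5264 CPM in wild type, 295.0 to 1591 CPM in Tfap2a+/- and 284.5 to 756.4 CPM in the libraries labelled Tfap2b+/-. Their score was -0.78, 3.53 and -0.59, then 1.70, -0.52 and -1.86, then -0.79, 0.65 and -1.32. Wild-type library 2 and Tfap2a+/- library 1 were thus the 2 highest for this list, as they were for the members. Library 1 labelled Tfap2b+/- ranked high for the members and low for the choroid plexus list. Lmx1a was at 0 in some libraries of both heterozygote groups, and Ttr, the abundant transport protein of this epithelium (named after its values were seen), ran from 6.28 to 2761 CPM.

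The 8 oligodendrocyte markers, genes of myelin, varied as well. Their summed level was 4727 to 7011 CPM in wild type, 2193 to 5708 CPM in Tfap2a+/- and 2614 to 7143 CPM in the libraries labelled Tfap2b+/-. Their score was lowest in Tfap2a+/- library 3 and library 3 labelled Tfap2b+/-, at -1.11 and -0.86, the 2 libraries lowest for the members. Summed levels of 10 striatal projection neuron markers ran from 210.1 to 2233 CPM, with the highest value in Tfap2a+/- library 1. All 10 were higher on average in Tfap2a+/- than in wild type, with a median log2 fold change of 2.03. In edgeR, 6 had an unadjusted p under 0.05 (3.84% of all genes), on a list chosen with earlier results of these data known. In the libraries labelled Tfap2b+/-, 5 were higher. All 8 oligodendrocyte markers were lower in Tfap2a+/- (median -0.49), and 6 of 8 in the libraries labelled Tfap2b+/- (-0.03). Of the 16 choroid plexus markers, 15 were lower in each comparison (medians -1.72 and -2.30). None of these markers was called. Scores of other marker lists ran from -0.19 to 0.12 for astrocytes, -0.25 to 0.21 for neurons and -0.24 to 0.11 for endothelial cells. For microglia they ran from -0.61 to 0.38. The score of neuroblast and subventricular zone markers ran from -0.79 to 0.78. It was 0.77 in library 3 labelled Tfap2b+/-, where that of the members was -0.93. The part of these cell types in the levels of the members was not tested. In brain tissue, fewer ependymal cells and less RNA per cell cannot be told apart.

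The label of the gene set was set against 14 ependymal markers, of which Foxj1, Ccdc153, Tmem212, Dynlrb2, Rarres2, Pifo and Rsph1 are also members. Of the 14, 13 were tested. Mia, not tested, was at 0 in every library except Tfap2a+/- library 1, where it was at 0.068 CPM, under the limit of 3 counts. Their summed level was 135.8 to 364.8 CPM in wild type, 110.7 to 240.9 CPM in Tfap2a+/- and 163.3 to 251.1 CPM in the libraries labelled Tfap2b+/-. Calml4, a marker that is no member, ran from 0.151 to 10.9 CPM. The other tested markers that are no members, named to complete the list, had narrower ranges. Hdc ran from 0.528 to 3.16 CPM, Cd24a from 4.38 to 12.6 CPM and Tm4sf1 from 7.66 to 12.9 CPM. Vim, found in many cell types, ran only from 34.1 to 52.4 CPM, and Nnat, named for its high level, from 50.1 to 216 CPM. Both had the highest levels of the list in every library, so the sum leans on them. In library 3 labelled Tfap2b+/- the sum was 169.9 CPM and the score of the list -1.25. In library 2 of that group they were 163.3 CPM and 0.19.

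**Figure D3:**
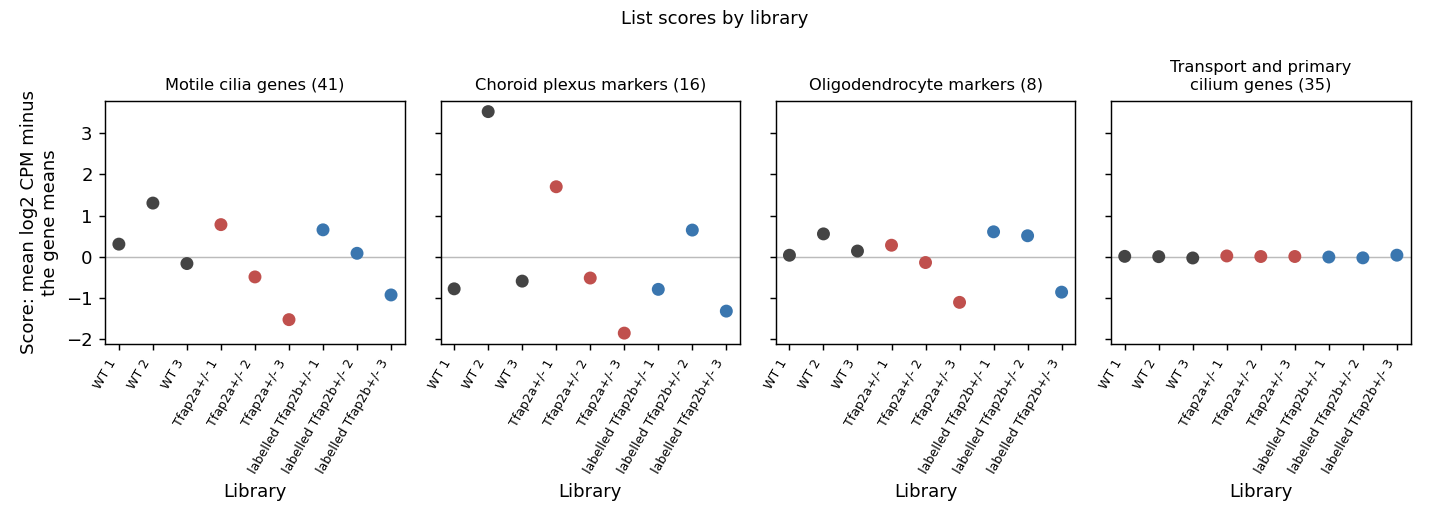
Score of 4 gene lists in each library, the mean over the genes of log2 CPM minus the mean of the gene over the 9 libraries, with 1 dot per library coloured by group. The members run from -1.53 to 1.30, choroid plexus markers from -1.86 to 3.53 and oligodendrocyte markers from -1.11 to 0.60, while transport and primary cilium genes stay between -0.03 and 0.04.

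The first comparison asks what 1 inactivated copy of Tfap2a does to these genes. In the Tfap2a+/- libraries 39 of the 41 members were lower on average than in wild type, with a median log2 fold change of -0.64; over all tested genes the median was -0.01 and 51.8% were lower. No member passed edgeR's quasi-likelihood test at an adjusted p of 0.05, where 0.0% of all tested genes did. At an unadjusted p under 0.05 there was 1 member, Dnah5, against 3.84% of all tested genes. Its log2 fold change was -0.62 ± 0.24 (SE), with an adjusted p of 1.0 in edgeR. Beside the median of -0.64 for the members stand medians of 2.03 for the striatal, -0.49 for the oligodendrocyte and -1.72 for the choroid plexus markers. The values of the 2 groups did not overlap, lower in Tfap2a+/-, for Dnah5 alone among the members (4.32% of all genes), and did not overlap in the other direction for 0 members (4.85% of all genes).

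By role, the median log2 fold change in Tfap2a+/- was -0.64 for the 7 dynein heavy chains, with 6 lower, and -0.60 for the 4 radial spoke genes, all lower. It was -0.58 for the 9 central pair genes, all lower, and -0.56 for the 6 genes of regulatory complex, ruler and tether, with 5 lower. It was -1.09 for the 7 tektins and inner proteins and -0.68 for the 8 regulator and other genes, all lower. Foxj1 averaged 15.6 ± 8.62 CPM over the wild-type and 8.78 ± 6.16 CPM over the Tfap2a+/- libraries (SD, n = 3), a log2 fold change of -0.82 with a 95% interval from -2.34 to 0.69. The 2 members higher on average were Drc1, at 0.35 (interval -0.24 to 0.95), and Dnah7a, at 0.01.

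The size of these averages depended on single libraries, while the median stayed below 0 with any 1 library left out. Without wild-type library 2, 13 members changed sign, against 0 to 2 without any other library. With that library left out, the median log2 fold change was -0.07, with 26 members lower, and that of Drc7 turned from -1.58 to 0.46. Without Tfap2a+/- library 1, the highest of its group for 39 members, the median was -1.57, with 40 lower. Leaving out Tfap2a+/- library 3 gave -0.31, and leaving out wild-type library 3 gave -0.97. Without both wild-type library 2 and Tfap2a+/- library 1, the 2 libraries of highest choroid plexus score, it was -0.85 with 39 lower. In each of these fits 0 members were called.

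The second comparison sets the libraries labelled Tfap2b+/- against the same wild-type libraries, so that it is not independent of the first. Here 38 of the 41 members were lower on average, with a median log2 fold change of -0.57, against 50.3% lower and a median of 0.00 over all tested genes. No member was called by edgeR, and 0.0% of all tested genes were. At an unadjusted p under 0.05 there was 1 member, Spag6l (10.6% of all genes). It averaged 8.97 ± 2.34 CPM over the wild-type libraries and 6.02 ± 0.893 CPM over those labelled Tfap2b+/- (SD, n = 3), a log2 fold change of -0.58 ± 0.22 (SE) with an adjusted p of 0.45 in edgeR. The groups did not overlap for 0 members in the lower direction (7.63% of all genes) and for 1, Ccdc39, in the higher (8.84%). The share of fragments outside genes was 11.1% to 11.8% in the libraries labelled Tfap2b+/-, above the 7.30% to 8.86% of wild type, and its part in these values was not tested.

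The 3 members higher on average in the libraries labelled Tfap2b+/- were Cfap46, Ccdc39 and Dnah7a. Cfap46 averaged 5.36 ± 1.19 CPM over the wild-type libraries and 10.1 ± 5.27 CPM over those labelled Tfap2b+/- (SD, n = 3), a log2 fold change of 0.92 with an interval from -0.08 to 1.91. Ccdc39 was higher by 0.15, with an interval from -0.08 to 0.39. By role, the median was -0.11 for dynein heavy chains, -0.71 for radial spoke genes, -0.34 for central pair genes, -0.33 for regulatory complex, ruler and tether, -1.0 for tektins and inner proteins, and -0.68 for the regulator and other genes. Foxj1 stood at -0.73, with an interval from -2.23 to 0.78.

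In this comparison the direction of the median depended on wild-type library 2. Without it the median log2 fold change was 0.12, with 15 of the 41 members lower and Drc7 at 0.19 in place of -1.86. Without library 1 labelled Tfap2b+/- the median was -0.97, and without library 3 it was -0.26. With all 9 libraries, the member folds in both heterozygote comparisons lay mostly left of 0 with standard errors that often reached it, as the plot of folds shows.

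**Figure D4:**
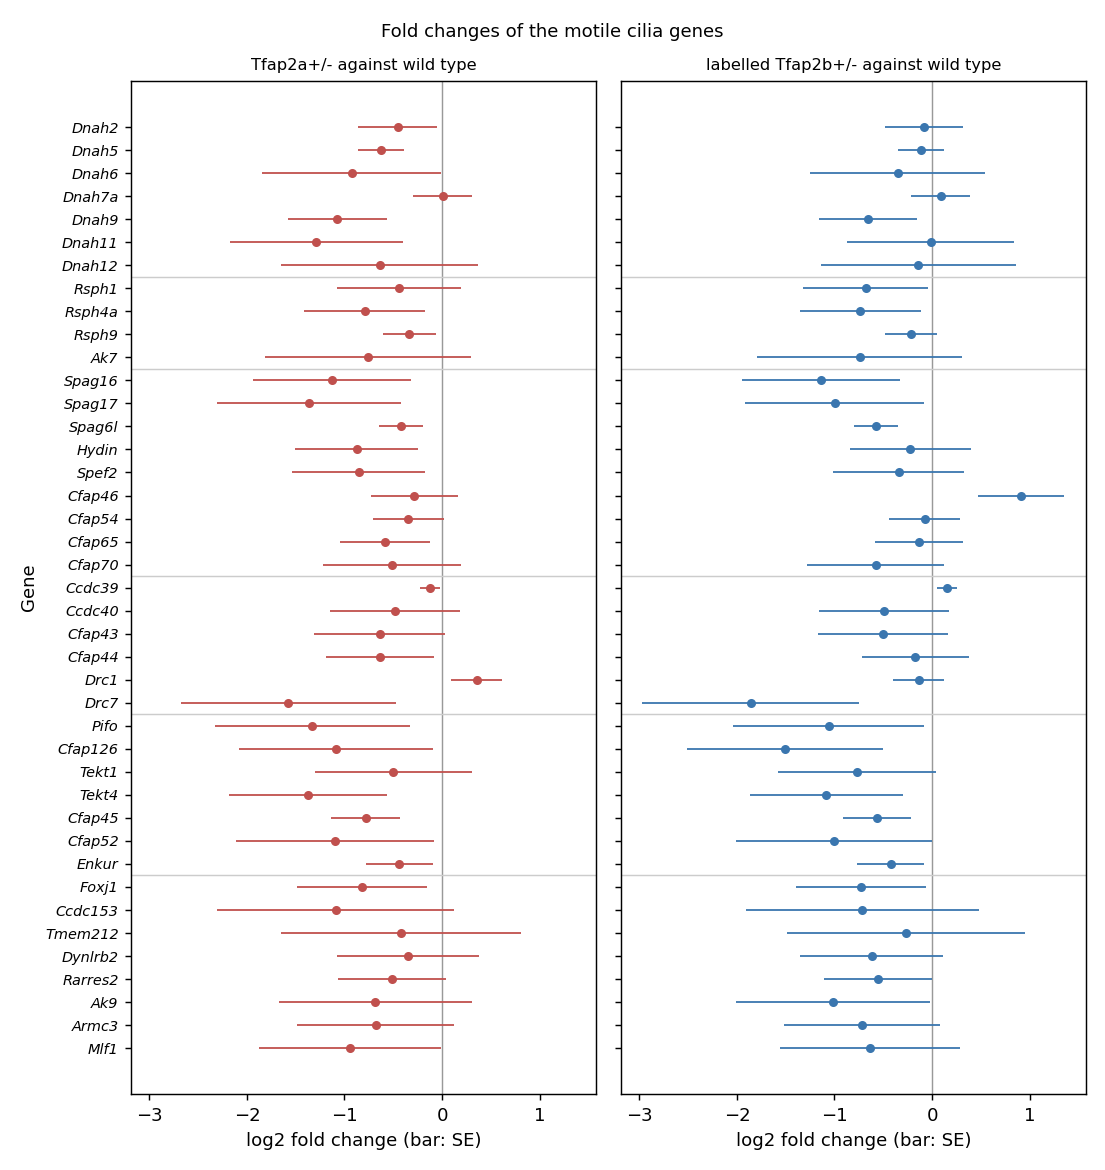
Log2 fold change of each member against wild type (dots) with 1 standard error on either side (bars), from edgeR, for Tfap2a+/- on the left and the libraries labelled Tfap2b+/- on the right, on 1 shared axis. Of 41 members, 39 and 38 lie below 0, and none passed the adjusted test; both panels use the same 3 wild-type libraries.

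Compared with each other, the heterozygotes differed in a direction that changed with the libraries kept. In Tfap2a+/-, 28 members were lower and 13 higher than in the libraries labelled Tfap2b+/-, with a median log2 fold change of -0.14, against 51.7% lower over all tested genes. No member was called by edgeR (0.0% of all genes), and 2 had an unadjusted p under 0.05 (11.5% of all genes). These were Cfap46, at -1.20 ± 0.44 (SE; adjusted p of 0.39 in edgeR), and Ccdc39, at -0.27 ± 0.10 (SE; adjusted p of 0.40 in edgeR). Ccdc39 was also the 1 member whose groups did not overlap, lower in Tfap2a+/- (9.2% of all genes), with 0 in the other direction (8.03%). All 7 dynein heavy chains were lower in Tfap2a+/-, with a median of -0.50. Without Tfap2a+/- library 1 the median over all members was -0.95. It was 0.03 without Tfap2a+/- library 2, 0.20 without Tfap2a+/- library 3 and 0.32 without library 1 labelled Tfap2b+/-. It was -0.48 without library 3 labelled Tfap2b+/-.

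DESeq2, run as an alternative, also called 0 members in each of the 3 comparisons. At the same adjusted threshold it called 30 of all 17355 tested genes in Tfap2a+/- against wild type. It called 175 in the libraries labelled Tfap2b+/- against wild type and 221 between the heterozygotes.

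Of 4 further lists of motile cilia genes, 3 had more genes lower than higher in both heterozygote comparisons, by smaller amounts than the members, and no gene of the 4 was called. Of 49 tested genes of other spokes, central pair, regulatory complex and axoneme, 42 were lower in Tfap2a+/- (median log2 fold change -0.34) and 37 in the libraries labelled Tfap2b+/- (-0.31). Of 21 other dynein arm and docking genes, 16 and 13 were lower (-0.37 and -0.20). Of 12 tested genes for the assembly of dynein arms in the cytoplasm, 8 and 11 were lower (-0.16 and -0.28). Of 16 tested genes of multiciliation and centriole amplification, among them the RFX genes and Foxj1, itself a member, 8 and 9 were lower (0.01 and -0.07), close to an even split. The scores of all 4 lists were highest in wild-type library 2 and lowest in Tfap2a+/- library 3.

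Genes that cilia need whether or not they move showed no such swings. The 35 genes of intraflagellar transport and the primary cilium, the single sensory cilium of most brain cells, had a score between -0.03 and 0.04 in every library and a median SD of log2 CPM of 0.13, against 0.92 for the members. Their level was also higher, with a sum of 1478 to 1587 CPM against 91.95 to 366.9 CPM for the 41 members. The part of level in these SDs was not tested. In Tfap2a+/- 16 of the 35 genes were lower and in the libraries labelled Tfap2b+/- 17, with medians of 0.01 and 0.01. The 16 dyneins of the cytoplasm and of intraflagellar transport split 9 lower in each comparison, with medians of -0.01 and -0.02. None of either list was called. The smallest p-values of the transport list against wild type belonged to Bbs2 in Tfap2a+/-, at 20.1 to 23.6 CPM against 18.4 to 20.0 CPM, and to Ttc8 in the libraries labelled Tfap2b+/-, at 19.6 to 20.2 CPM against 14.8 to 16.8 CPM.

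The 10 tested genes outside the set whose log2 CPM followed the score of the members most closely over the 9 libraries had Pearson correlations of 0.97 to 0.99. Among them were Ttc21a, Spata18, Cd82, Nek5, Dnaaf1, Ubxn10, Spata17, Mapk15 and Fam216b. Dnaaf1 is on the list of genes for dynein arm assembly. Ttc21a was at 2.96, 10.3 and 2.09 CPM across the wild-type libraries, 5.48, 1.02 and 0.369 CPM across Tfap2a+/- and 5.54, 2.76 and 0.754 CPM across those labelled Tfap2b+/-. Cd82, a membrane protein found in many cell types, ran from 8.06 CPM in Tfap2a+/- library 3 to 22.4 CPM in wild-type library 2. They were picked for this likeness, so it carries no test.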

How the data were processed

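RNA was measured in 9 brain libraries, 3 per genotype. The authors deposited a table of raw counts per library with an unstranded, a forward and a reverse column. Tools listed in the submitters' processing notes are cutadapt 2.4, STAR 2.6.1d and edgeR, with the build GRCm38.p6; no annotation release is stated there. The reverse column was used, because the labels' protocols describe dUTP libraries; forward-strand counts were 4.16% to 4.94% of stranded counts. Rows that name no gene were left out: 7.30% to 8.86% of fragments lay outside genes in wild type, 8.07% to 8.96% in Tfap2a+/- and 11.1% to 11.8% in the libraries labelled Tfap2b+/-; in all, 5.33% to 6.20% mapped to several places, 1.21% to 1.74% were unmapped and 1.10% to 1.21% were ambiguous between genes. Identifiers were matched to GENCODE M21 for 54409 of 54446; the other 37 kept their identifiers.

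Genes passing filterByExpr were fitted in edgeR 4.0.16 (R 4.3.3) with TMM scaling and the quasi-likelihood test, a term for genotype alone and all 9 libraries in 1 fit. P-values were adjusted by Benjamini-Hochberg over all 17355 genes, and called under 0.05. Log2 CPM used a prior count of 2. The fit was tested on simulated data. Alternatives were DESeq2 1.42.0, its size factors, other filters, unstranded counts, a replicate block, only the 2 groups compared, a robust fit, each library left out, and, chosen after seeing the data, both libraries of highest choroid plexus score left out. No pair of libraries of the same genotype agreed within sampling noise (smallest chi-square per degree of freedom 18.7). The labels name no batch.

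The members, lists, markers and motifs were chosen with earlier results of these data known, so lists are given as counts and medians with no test. All members could be named; of other lists, called genes or else up to 3 of smallest p; outside the lists, the 10 genes most correlated with the members' score, Tfap2a, Tfap2b and close copies of members. Exceptions are said in place, and 1 of these 10 genes is not reported here.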

Additional observations from a re-analysis of the deposited data

How the results depend on the processing

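No member was called in any of the 3 comparisons under any alternative. The averages, the coherence and the counts at an unadjusted p under 0.05 in edgeR did move. For Tfap2a+/- against wild type, 17 of 41 members were under that p without Tfap2a+/- library 1, in place of 1. Without wild-type library 2, 0 were. Between the heterozygotes, 7 were without Tfap2a+/- library 1, in place of 2. The share of all genes under that p was not taken in these fits. Leaving out 1 library at a time, the median log2 fold change of the members ran from -1.57 to -0.073 for Tfap2a+/- against wild type, from -0.97 to 0.12 for the libraries labelled Tfap2b+/- against wild type and from -0.95 to 0.32 between the heterozygotes. It stayed within 0.05 of its value with DESeq2, other size factors, other filters, unstranded counts, only the 2 groups compared or a robust fit. The coherence of the members, a median Spearman correlation of 0.82, ran from 0.762 to 0.857 with a library left out and was 0.75 without the 2 libraries of highest choroid plexus score. Labels share replicate numbers across genotypes without saying that a number pairs animals, so the numbers were not read as pairs. The deviations of same-numbered libraries correlated from -0.352 to 0.337. Those of libraries with different numbers and genotypes correlated from -0.394 to 0.37. Whether a number stands for a shared step was not tested. With the replicate number as a block, the medians were -0.91, -0.69 and -0.23, the coherence 0.717, 0 members were called and Dnah7a in Tfap2a+/- was at -0.011. Dnah7a, near 0 in that comparison, was at -0.0021 without a filter and from -0.17 to 0.23 with a library left out. With a library left out, the range of Drc7 was -2.97 to 0.46 for Tfap2a+/- and -2.34 to 0.19 for the libraries labelled Tfap2b+/-, and it was 0.19 for the latter without the 2 libraries of highest choroid plexus score. The share of members' promoters with an X-box was 12.8% both with a gap of 1 or 2 bases and before the start site alone. At these depths a member under 0.101 to 0.141 CPM in a library cannot be told from 0, and 3 libraries a group leave 95% intervals that hold 0 for most members.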
